A study of Mus musculus with 139 samples.

Results

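The 7 genes listed here for the tip elongation complex of stereocilia were followed in single mouse cochlear hair cells: Myo15, Whrn, Eps8, Eps8l2, Gpsm2, Gnai3 and Twf2. They were taken by symbol, for the known role of their products, and all 7 were found among the 55335 lines of the count table, each on 1 line. All 7 also reached 5 CPM (counts scaled to a library of the same total) in 1 or more groups. RNA was sequenced from single cells of mice between postnatal days 14 and 16, namely 52 outer hair cells (OHCs), which amplify vibration, and 87 inner hair cells (IHCs), which pass the signal to the auditory nerve. Cells came from the apex, middle or base of the cochlear spiral, tuned to low, intermediate and high frequencies, and the study's design sets these places and types side by side. There were 21 apical, 23 middle and 8 basal OHCs and 34 apical, 34 middle and 19 basal IHCs. The titles of 2 apical IHCs carry the same number, 17, and the labels give each as a single cell, so both were counted. Their totals were 3478864 and 103101 counts and their profiles correlated at 0.19, against a median of 0.37 over the 136 pairs of apical IHCs with title numbers of 100 or less. Leaving out either moved the log2 ratios of the 7 genes by 0.0353 at most. The labels name no strain, genotype or treatment, and they name no animal, so that each group counts as 1 sample, cells are not replicates, and no test between groups was run.

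Stereocilia are actin-filled protrusions that form a staircase of rows on each hair cell, and their length is set where actin is added at the tips. Myosin XVA, the motor encoded by Myo15, carries the scaffold whirlin (Whrn) and the actin regulator EPS8 to the tips, and GPSM2 with the G protein subunit encoded by Gnai3 directs this complex to the tallest row. EPS8L2 is a relative of EPS8 in stereocilia, and twinfilin 2 (Twf2) caps actin filaments and restrains length in shorter rows. Loss of several of these proteins in mice gives short or unevenly graded bundles and hearing loss.

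In the GRCm38 annotation Myo15 lies on chromosome 11 from 60469339 to 60528369 on the plus strand, with 12760 bases of exon. Whrn lies on chromosome 4, from 63414910 to 63495991, with 7337 bases of exon on the minus strand. Eps8 lies on chromosome 6 (137477245 to 137654876, minus strand, 12355 bases of exon) and its relative Eps8l2 on chromosome 7 (141338880 to 141363020, plus strand, 5377 bases). Gpsm2 (108678638 to 108722309) and Gnai3 (108107280 to 108146146) both lie on the minus strand of chromosome 3, 532491 bases apart, with 3909 and 3262 bases of exon. Twf2 lies on chromosome 9 (106203108 to 106215389, plus strand) and has the shortest exons of the 7 genes, 2319 bases. All are protein coding, and none shares exon bases with another gene on its own strand. On the opposite strand Eps8l2 shares 1729 bases with B230206H07Rik and Gpsm2 shares 203 bases with Clcc1, so that without strand their reads could not be told apart.

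Promoters of 5 of the 7 genes are in RefSeq's table for GRCm38.p6, and the 250 bases before RefSeq's start of Myo15, Whrn and Gpsm2 are shown, because these are the 3 members that passed 100 CPM in some group. They are chr11:60469089-60469338 on the plus strand, chr4:63495992-63496241 on the minus strand and chr3:108722300-108722549 on the minus strand. The windows follow RefSeq's starts, and that of Gpsm2 takes in a few bases inside the gene's span given above. Each is written 5′ to 3′ on the strand of its gene, and capitals mark a match, on either strand, to a CCAAT box (CCAAT), a GC box (GGGCGG) or an E box (CANNTG), which reads the same on both strands.
Myo15: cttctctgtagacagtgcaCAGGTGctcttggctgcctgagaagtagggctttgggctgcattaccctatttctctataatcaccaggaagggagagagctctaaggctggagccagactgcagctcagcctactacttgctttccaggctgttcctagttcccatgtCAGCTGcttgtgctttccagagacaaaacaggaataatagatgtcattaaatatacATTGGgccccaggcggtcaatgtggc
Whrn: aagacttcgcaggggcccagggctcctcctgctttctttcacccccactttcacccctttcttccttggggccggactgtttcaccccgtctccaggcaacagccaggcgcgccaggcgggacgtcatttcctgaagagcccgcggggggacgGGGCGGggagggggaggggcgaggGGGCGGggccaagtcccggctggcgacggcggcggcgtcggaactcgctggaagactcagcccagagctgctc
Gpsm2: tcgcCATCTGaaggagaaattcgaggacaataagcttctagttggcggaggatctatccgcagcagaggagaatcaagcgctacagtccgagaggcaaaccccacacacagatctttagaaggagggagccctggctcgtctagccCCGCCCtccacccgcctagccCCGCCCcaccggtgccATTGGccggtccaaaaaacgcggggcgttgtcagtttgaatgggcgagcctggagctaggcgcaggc
The window of Myo15 held 1 CG pair and 49.6% G and C, against 21 CG pairs and 69.6% in Whrn and 17 pairs and 60.0% in Gpsm2, where the median of all 32851 promoters was 52.4% G and C. The match to CCAAT occurred in Myo15 and Gpsm2 and in 33.8% of all promoters, and the GC box occurred in Whrn, Gpsm2 and Eps8l2 and in 32.7%. An E box was present in Myo15, Gpsm2, Eps8l2 and Gnai3 and in 66.2% of all promoters. The TATA box (TATAAA, either strand) was in none of the 5 and in 12.4% of all. No match in this list overlaps another in the 3 windows shown, and a match is a string of letters, not a site.

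Counts per cell ran from 71027 to 13576942, with a median of 4804177, and detected genes from 681 to 27575. Basal OHCs were the smallest group, with 28574809 counts in 8 cells, and 30.9% of these came from a single cell. The totals of the other groups lay between 94869815 and 199944360 counts. Cells fall into a series with title numbers above 100 (58 high-numbered cells) and a series with numbers of 100 or less (81 low-numbered cells), whose meaning the labels do not give. The median total was 7187429 in high-numbered cells and 3186039 in low-numbered ones, and values are given within each series where the pooled value could rest on this split. Otof, an IHC marker, was at 10 CPM or more in 32.7% of OHCs (median total 2912574) and 93.1% of IHCs (median total 5497962), and Slc26a5, the OHC motor, in 46.2% of OHCs and 12.6% of IHCs. Beside these pooled marker shares, every member but Myo15 in apical and middle OHCs was in a smaller share of each OHC group. Eps8 in basal IHCs, at 5.26%, was likewise under the 12.6% of Slc26a5. By group, Otof was at 10 CPM or more in 57.1%, 21.7% and 0% of apical, middle and basal OHCs. Slc26a5 was so in 26.5%, 5.88% and 0% of apical, middle and basal IHCs. Among OHCs, Myo15 (47.8%) and Gpsm2 (26.1%) in the middle were above the marker of their own group. So were Myo15, Eps8l2 and Gpsm2 in basal OHCs (12.5% each, 1 cell). The other OHC shares were at or under it and cannot be told from background. In apical IHCs the same holds for Whrn (14.7%), Eps8 and Twf2 (23.5% each) and Eps8l2 and Gnai3 (26.5% each). Apical Myo15 (32.4%) and Gpsm2 (29.4%) were above it, as was every member in middle and basal IHCs, with Eps8 in basal IHCs on 1 cell. All 6 pan hair cell markers had reads in every group, but their summed level in the median cell was 174 CPM in basal OHCs and between 442 and 3799 CPM in the other groups. Over the basal OHCs Myo7a, Pou4f3, Gfi1 and Calb1 were at 1.10, 4.13, 0.797 and 3.49 CPM. Pvalb was at 77.1 CPM there, against 83.3 CPM in apical OHCs, and Myo6 at 666 CPM, with 99.6% of its counts in 1 cell. Markers of mesenchyme and bone (6 of 6 with reads) had a median summed level of 13472 CPM in basal OHCs, against 1042 to 8569 CPM elsewhere, and blood and immune markers (6 of 6) 6682 CPM against 289 to 1440 CPM. Supporting cell markers (8 of 8 with reads, but 7 of 8 in basal OHCs, where Jag1 was at 0) were at 27.5, 27.3 and 0.564 CPM in the median apical, middle and basal OHC and at 1674, 654 and 66.9 CPM in the IHCs of the same regions. Neuron and glia markers (7 of 7) were between 868 and 2488 CPM. The part of title number, depth and these other cell types in the differences between groups was not tested.

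Gpsm2 was the highest of the 7 genes per length of exon in all 6 groups, on the TPM scale, which divides counts by the merged length of a gene's exons, and Eps8 was the lowest in 4 of them. Over summed cells Gpsm2 reached 134, 125 and 17.5 TPM in apical, middle and basal OHCs and 92.7, 368 and 336 TPM in the IHCs. In middle IHCs that level is above 99.1% of all genes with a count. Myo15 followed at 61.6 TPM in apical OHCs, whereas Twf2 came second in middle OHCs (66.1 TPM), apical IHCs (53.3 TPM) and basal IHCs (41.9 TPM), Whrn in middle IHCs (79.4 TPM) and Eps8l2 in basal OHCs (8.53 TPM). Eps8 lay between 0.0215 TPM in basal OHCs and 10.04 TPM in middle OHCs.

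**Figure D1:**
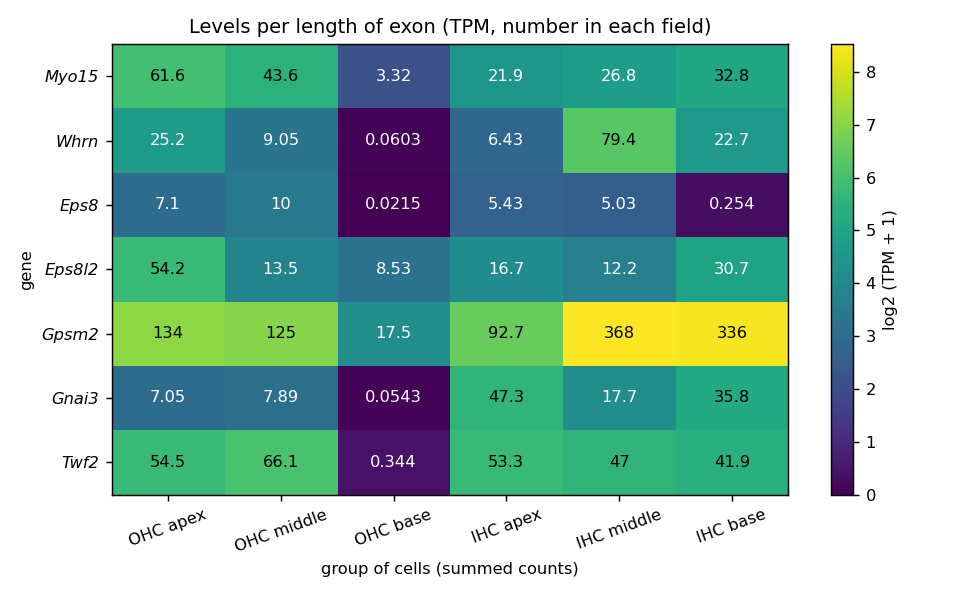
Level per length of exon in TPM (number in each field, colour as log2 of TPM + 1) of the 7 genes (rows) in the 6 groups of summed cells (columns). Gpsm2 is highest in every column, and the column of basal OHCs holds the lowest value of each gene. These TPM are not scaled by TMM, so columns are compared with caution. On TMM-scaled CPM Eps8l2 was at 25.8 CPM in basal OHCs, above middle OHCs (18.1), apical IHCs (23.9) and middle IHCs (16.1).

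The motor gene Myo15 was the member found at 10 CPM or more in the most cells, 57. Over summed cells, scaled by TMM, it was at 245.5 CPM in apical, 138.5 CPM in middle and 23.9 CPM in basal OHCs, against 74.2, 84.0 and 130.3 CPM in the IHCs. Without the top cell of the group, apical and basal IHCs were at 47.6 and 82.8 CPM and basal OHCs at 0.928 CPM. The exact Poisson intervals at 95% around the highest and lowest of these, 242 to 249 and 21.8 to 26.1 CPM, cover counting error only. From cell to cell, in CPM of each cell's own total, the lowest, median and highest were 0.367, 4.77 and 2444 in apical OHCs, 0, 5.80 and 1269 in middle OHCs and 0, 0.651 and 467 in basal OHCs. In IHCs they were 0, 2.77 and 542 in the apex, 0, 3.04 and 511 in the middle and 0.269, 25.5 and 993 at the base. The cells of every group overlapped those of every other, and the group levels are carried by the upper part of each group. The order of the 6 levels ran from apical OHCs down to basal OHCs, and no neighbours in it had interquartile ranges of cells that stood apart. The share of cells at 10 CPM or more was 47.6%, 47.8% and 12.5% in apical, middle and basal OHCs and 32.4%, 38.2% and 57.9% in IHCs. With each cell thinned to 582635 counts, 84.2%, 88.9% and 57.1% of the OHCs and 70.0%, 71.9% and 73.7% of the IHCs still had a read, so Myo15 was detected in most cells at equal depth, often at low levels.

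In middle OHCs Myo15 was at 154 CPM in the summed high-numbered and 134 CPM in the summed low-numbered cells, but other groups were less even between the series. In apical OHCs the sums were 360 CPM in 12 high-numbered and 1.93 CPM in 9 low-numbered cells, and in apical IHCs 129 and 5.55 CPM. The log2 ratio of apical OHCs over apical IHCs was 1.71 over all cells, 1.48 in high-numbered cells and -1.16 in low-numbered cells, so the direction turned with the series. In the middle the ratio was 0.71 (0.22 and 3.72 in the same order of series), and 23.6% of the middle OHCs' counts came from 1 cell. Basal over apical IHCs gave 0.80, with 0.86 in high-numbered and 3.02 in low-numbered cells. These ratios are on the log2 scale of (CPM + 1), as are the ratios of the genes that follow.

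**Figure D2:**
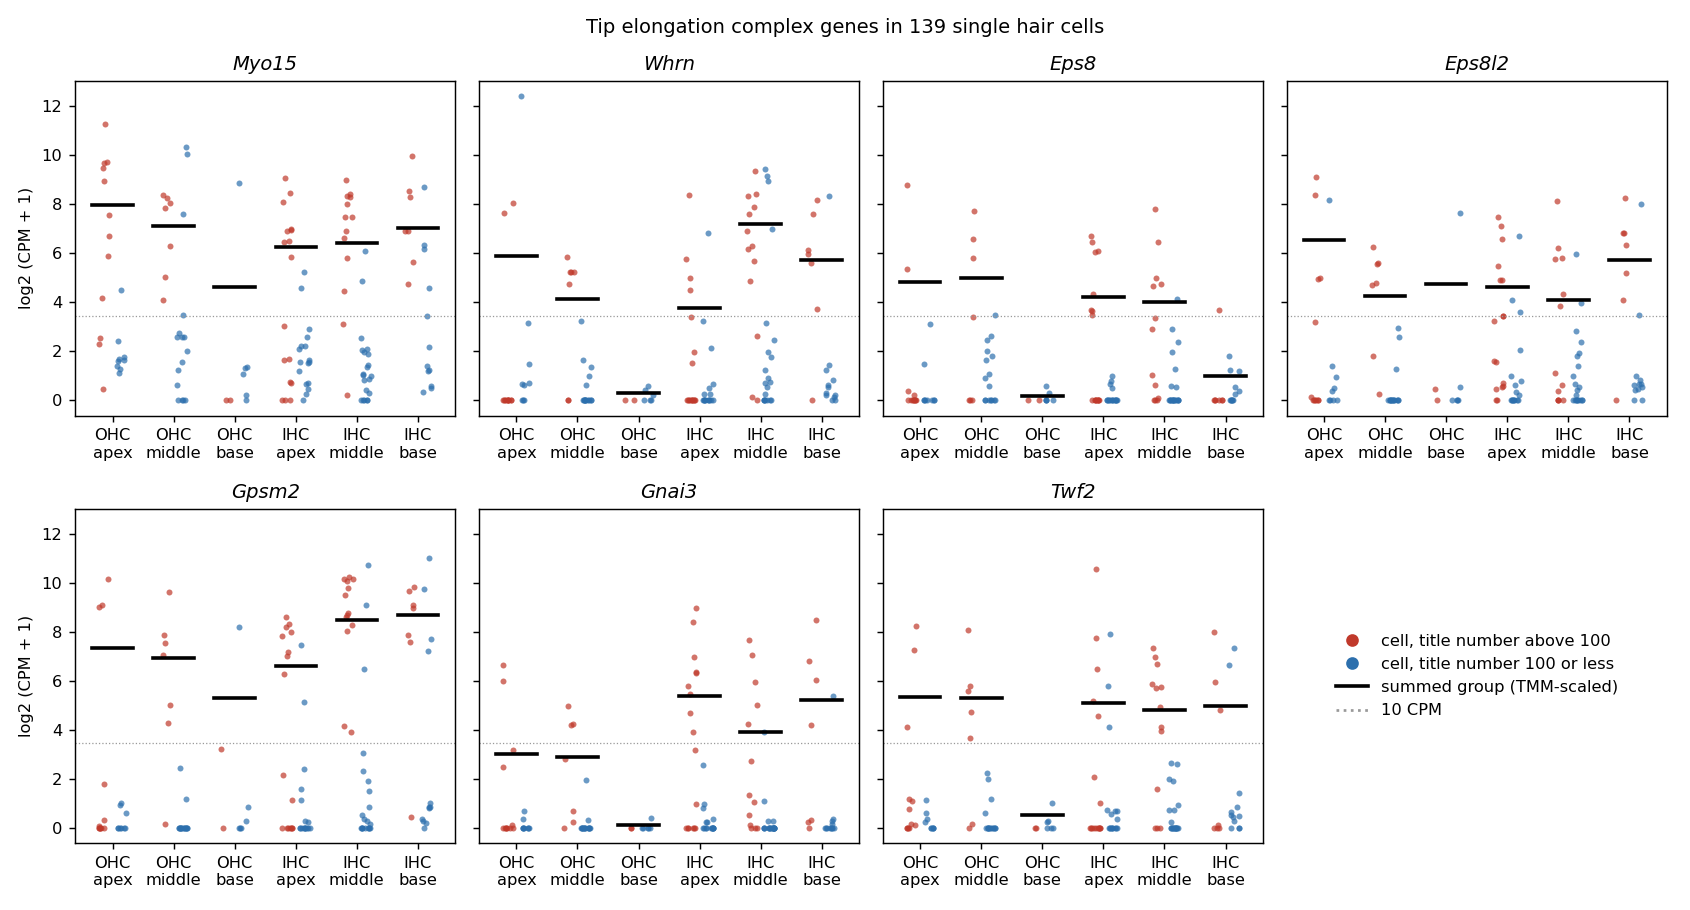
Level of each gene in each cell, as log2 of (CPM + 1), by group from apical OHCs to basal IHCs, with high-numbered cells in red, low-numbered cells in blue and the summed group as a black bar. Of the 57 cells above the dotted line at 10 CPM in the panel of Myo15, 43 are red, and of the 21 in that of Eps8, 19 are red.

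Whrn, the scaffold that binds the motor's tail, was highest in middle IHCs. Its summed level was 57.7, 16.5 and 0.249 CPM in apical, middle and basal OHCs and 12.5, 143 and 51.97 CPM in the IHCs. The median cell was at 0 CPM in all 3 OHC groups and in apical IHCs, and at 3.75 and 0.776 CPM in middle and basal IHCs. The highest cells reached 5383, 56.3 and 0.506 CPM in apical, middle and basal OHCs and 327, 695 and 324 CPM in the IHCs. Cells at 0 CPM were present in all 6 groups, so the groups overlapped, but no basal OHC came near the high cells of the other groups. In apical OHCs the highest cell, which is low-numbered, held 55.8% of the group's Whrn counts, and without the cell with the most reads in each group the ratio over apical IHCs was 1.61 against 2.12 with it. Without that cell apical OHCs were at 25.7 CPM, and without their own top cell apical and basal IHCs were at 7.73 and 32.2 CPM. The 5 Whrn counts of basal OHCs (0.0808 to 0.581 CPM by the Poisson interval) came from 3 of 8 cells. Whrn was 2-fold or more lower in OHCs than in IHCs in the middle (log2 ratio -3.04) and in the base (-5.41), and 2-fold or more higher in the base than in the apex of IHCs (1.97). These 3 ratios, with the -5.55 of basal over apical OHCs, stayed past 2-fold in the same direction in all 10 alternative settings. None of these settings left out the top cell within 1 series, and only 1 low-numbered basal IHC was at 10 CPM or more. By sums, in middle IHCs Whrn was at 116.4 CPM in high-numbered and 227 CPM in low-numbered cells, and in apical OHCs at 36.9 and 129 CPM, whereas most members were higher in high-numbered cells. By cell Whrn went with the other members, at 10 CPM or more in 27 of 58 high-numbered and 7 of 81 low-numbered cells. The median middle IHC was at 77.9 CPM in the first series and 0.670 CPM in the second. In low-numbered apical OHCs the sum rested on 3236 counts of 1 cell, and the medians there were 0 and 0.606 CPM.

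Eps8, an actin capping and bundling protein carried by the motor, was at 10 CPM or more in 21 cells, the fewest of the 7 genes. The summed level was 27.4, 30.9 and 0.149 CPM in apical, middle and basal OHCs and 17.8, 15.3 and 0.980 CPM in the IHCs. In the median cell it was at 0.912 CPM in middle OHCs, 0.0385 CPM in middle IHCs and 0 CPM in the other 4 groups, and the highest cells had 438, 207 and 0.506 CPM in OHCs and 104.5, 222 and 11.9 CPM in IHCs, in the order apex, middle, base. Both basal groups were thus low, with 3 and 129 counts, and basal over apical gave -4.63 in OHCs and -3.25 in IHCs. The ratio of OHCs to IHCs was 0.59 in the apex and 0.97 in the middle, both under 2-fold. A single cell held 78.6% of the counts in apical OHCs, and without the top cell the level was 6.15 CPM in apical and 14.9 CPM in middle OHCs and 8.35 and 0.353 CPM in middle and basal IHCs. In the comparison of types, leaving out the top cell of each group gave an apical ratio of -1.002. Only 2 low-numbered cells were at 10 CPM or more, against 19 high-numbered ones. In low-numbered IHCs the basal ratio was 0.46, since the gene was at 0.649 CPM in the base and 0.201 CPM in the apex there, near the level of single reads. By the ratio of CPM alone, which adds no pseudocount, Eps8 in basal OHCs was 183.5-fold lower than in apical OHCs, with a counting interval from 62.7 to 890.2, and 6.56-fold lower than in basal IHCs (2.19 to 32.2).

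Over summed cells Eps8l2, the relative of Eps8, was higher in apical OHCs than in apical IHCs, at 91.0 against 23.9 CPM. In the middle the 2 types were at 18.1 CPM in OHCs and 16.1 CPM in IHCs, and in the base at 25.8 and 51.5 CPM. Without the top cell apical and basal OHCs were at 53.9 and 0.274 CPM and middle IHCs at 8.52 CPM. Median cells lay between 0 and 0.808 CPM, and the highest between 75.6 CPM in middle OHCs and 546 CPM in apical OHCs. The apical ratio was 1.89 over all cells, 1.65 in high-numbered and 1.76 in low-numbered cells, and between 1.53 and 2.22 in all 10 alternatives. Eps8l2 was therefore the only 1 of the 4 apical differences past 2-fold that stayed so in each of these settings. But 2 cells held 4434 and 3550 of the 9151 counts of apical OHCs, and only 1 low-numbered apical OHC was at 10 CPM or more. By cell the apical difference went the other way. The median was 0.119 CPM in OHCs and 0.675 CPM in IHCs, and 23.8% and 26.5% of cells were at 10 CPM or more. Thinned to equal depth, 36.8% and 56.7% had a read. Along the spiral it was 2-fold or more higher in basal than in apical IHCs (1.08), with 0.90 in high-numbered and 2.62 in low-numbered cells. The upper quartile of basal OHCs, 0.415 CPM, lay just under the lower quartile of basal IHCs, 0.439 CPM, so that the interquartile ranges stood apart, which was the case for no other neighbours in the order of levels of any of the 7 genes. The antisense neighbour B230206H07Rik was at 24.3, 8.91 and 0.896 CPM in apical, middle and basal OHCs and 11.5, 8.61 and 16.6 CPM in the IHCs, and its correlation with Eps8l2 over all cells was 0.18.

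Twf2, the filament capper of shorter rows, differed little among 5 of the 6 groups. The summed level was 39.5, 38.2 and 0.448 CPM in apical, middle and basal OHCs and 32.8, 26.8 and 30.3 CPM in the IHCs. Lowest cells were at 0 CPM in every group, medians between 0 and 0.421 CPM, and highest cells at 299, 267 and 1.01 CPM in OHCs and 1513, 160 and 257 CPM in IHCs. Twf2 differed by under 2-fold between the types in the apex (0.26) and the middle (0.49), and between basal and apical IHCs (-0.11). Without the top cell of each group the apical and middle ratios were -0.87 and -0.52, as 1 cell held 69.3% of the counts in apical and 68.3% in middle OHCs, whose levels without it were 13.3 and 13.9 CPM. In the low-numbered cells of the apex the gene was at 0.197 CPM in OHCs and 46.5 CPM in IHCs, a ratio of -5.31, and in high-numbered ones at 58.0 and 35.98 CPM. In basal OHCs 9 counts were found, 6 of them in 1 cell, and the ratio to basal IHCs was -4.43, between -5.79 and -4.02 in all 10 alternatives.

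Gpsm2, the adaptor that sets the tallest row apart, was lower in OHCs than in IHCs in the middle and the base. It was at 163, 121 and 38.4 CPM in apical, middle and basal OHCs and 96.2, 354 and 409 CPM in the IHCs. A single cell held 42.4%, 61.7% and 96.4% of the counts of apical, middle and basal OHCs, whose levels without it were 108.1, 52.998 and 1.53 CPM. The lowest, median and highest cells were at 0, 0 and 1131 CPM in apical, 0, 0 and 790 CPM in middle and 0, 0.113 and 290 CPM in basal OHCs. Among IHCs they were at 0, 0.0983 and 391.96 CPM in the apex, 0, 5.66 and 1667 CPM in the middle and 0, 149 and 2064 CPM at the base. Basal IHCs were the only group in which the median cell was above 10 CPM for this gene, and cells of all groups overlapped. The ratio of OHCs over IHCs was -1.54 in the middle (-1.41 in high-numbered and -6.93 in low-numbered cells) and -3.38 in the base, and basal over apical IHCs gave 2.08 (1.61 and 3.75). These 3 ratios stayed past 2-fold in all 10 alternatives. All 13 high-numbered middle IHCs were at 10 CPM or more, from 14.2 to 1208 CPM, against 3 of 21 low-numbered ones. The overlapping gene Clcc1 was at 1.79, 9.18 and 0 CPM in apical, middle and basal OHCs and 9.09, 13.1 and 9.54 CPM in the IHCs, each far below Gpsm2, and correlated with it at 0.34 over the cells.

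Gnai3, the inhibitory G protein subunit that binds GPSM2, was lower in OHCs than in IHCs in every region. Its level was 7.19, 6.40 and 0.0996 CPM in apical, middle and basal OHCs and 40.9, 14.2 and 36.4 CPM in the IHCs. Single cells weighed on these levels, which without the top cell were 4.35 and 3.89 CPM in apical and middle OHCs and 26.7, 8.47 and 18.7 CPM in apical, middle and basal IHCs. The top cell held 51.3% of the counts in basal IHCs, and both counts of basal OHCs came from 1 cell. The ratios were -2.36 in the apex, -1.04 in the middle and -5.09 at the base. Median cells were at 0 CPM in the 3 OHC groups and in middle IHCs and at 0.0939 and 0.110 CPM in apical and basal IHCs, and the highest OHC had 100.7 CPM against 507 CPM for the highest IHC. In high-numbered cells the apical and middle ratios were -2.66 and -1.12, whereas low-numbered cells gave -0.33 and -0.13, with levels of 0.0787 against 0.352 CPM in the apex and 0.132 against 0.243 CPM in the middle. Of the 25 cells with Gnai3 at 10 CPM or more, 23 were high-numbered. In basal OHCs, on 2 counts, the level was 365.4-fold lower than in basal IHCs by the ratio of CPM, with a counting interval from 101.1 to 3017.8, and 72.2-fold lower than in apical OHCs (19.9 to 597.3).

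In the apex 3 of 7 genes were 2-fold or more higher in OHCs than in IHCs, Myo15, Whrn and Eps8l2, where 28.6% of the 15004 genes at 5 CPM or more were, and 1 was lower, Gnai3, where 32.4% of genes were. The median log2 ratio of the members was 0.76, beside -0.02 over all genes. Within the high-numbered cells 2 members were higher and 1 lower, beside 29.8% and 33.1% of all genes. Within the low-numbered cells 2 were higher and 3 lower, beside 9.62% and 30.3%. Whrn was at 0.96 in the first and 3.89 in the second of these, and Gpsm2, at 0.76 over all cells, was at 0.61 and -4.39. With 7 genes, the counts over all cells lie near the background shares.

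In the middle no member was 2-fold or more higher in OHCs, against 20.7% of all genes, and 3 were lower, Whrn, Gpsm2 and Gnai3, against 29.7% of all genes. The members' median was 0.16 and that of all genes -0.07. High-numbered cells gave 0 higher and 3 lower, the same 3 genes by name, beside 22.1% and 26.6% of all genes. Low-numbered cells gave 1 higher, Myo15, and 3 lower, Whrn, Gpsm2 and Twf2, beside 9.82% and 30.2%. Myo15 in the low-numbered middle OHCs rested on cells of up to 1269 CPM, with 4 of 16 cells at 10 CPM or more.

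In the base no member was 2-fold or more higher in OHCs, where 16.1% of all genes were, and 5 were lower, where 48.9% were. The 5 were Whrn (-5.41), Gnai3 (-5.09), Twf2 (-4.43), Gpsm2 (-3.38) and Myo15 (-2.40), and Eps8l2 (-0.97) and Eps8 (-0.78) stayed under 2-fold. The members' median was -3.38. All genes had a median of -0.89 in this comparison, and of -0.39 with the size factors of DESeq2 and -1.07 with plain CPM, so that the level to which members are compared moves with the scaling. Within low-numbered cells, 6 OHCs against 12 IHCs, the same 5 genes were lower, at -5.18, -2.55, -4.19, -3.57 and -1.35 in the order above. The IHC side rested on few cells. Of the 12, 1 was at 10 CPM or more for Whrn (324 CPM, median of the 12 0.349 CPM) and 1 for Gnai3 (40.5 CPM). For Twf2 it was 2, and for Gpsm2 and Myo15 4 each. In the low-numbered cells 23% of all genes were 2-fold or more lower, and the members' median was -2.55, against -0.08 over all genes. The 2 high-numbered basal OHCs, with 134269 and 2481594 counts, held no read of 5 of the 7 genes, for which 3 counts of their sum would be 1.15 CPM, and 1 read of Eps8l2 and 21 of Gpsm2. With these 2 cells as the OHC side all 7 members were 2-fold or more lower than in high-numbered basal IHCs, beside 55.9% of all genes, and lower than in high-numbered apical OHCs, beside 54.1%.

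**Figure D3:**
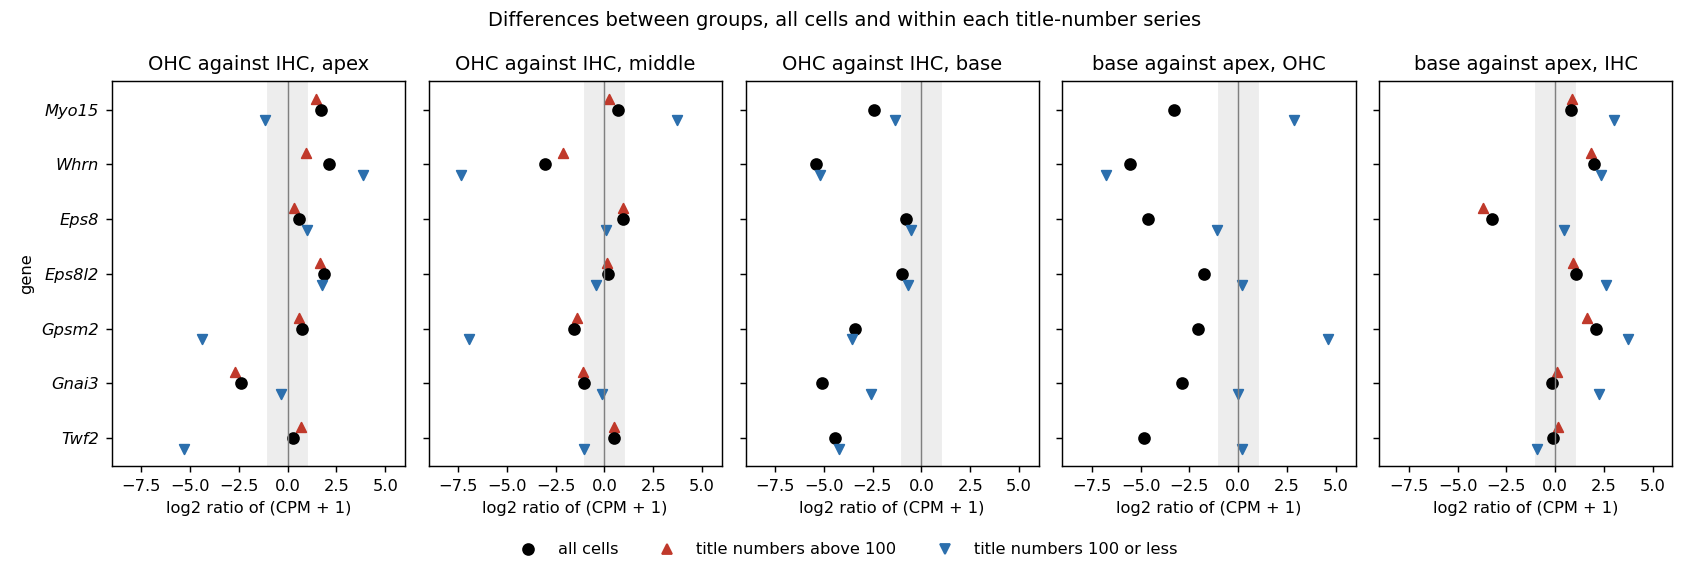
Log2 ratio of (CPM + 1) of each gene (rows) in the 5 comparisons (panels), over all cells (black), high-numbered cells (red) and low-numbered cells (blue), with differences under 2-fold shaded. Red is left out where the 2 high-numbered basal OHCs would be 1 side. Whrn lies left of the shading in all of the points shown for OHCs against IHCs in the middle and base, and black and blue lie far apart for most genes in base against apex of OHCs.

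Along the spiral of OHCs, all 7 genes were 2-fold or more lower in the base than in the apex, where 47.6% of all genes were, and none was higher, where 17.4% were. The ratios were -5.55 for Whrn, -4.81 for Twf2, -4.63 for Eps8, -3.31 for Myo15, -2.90 for Gnai3, -2.06 for Gpsm2 and -1.78 for Eps8l2, with a median of -3.31 beside -0.72 over all genes. With the size factors of DESeq2 and with plain CPM the median of all genes was -0.38 and -0.95. The low-numbered cells, 6 basal against 9 apical OHCs, gave another picture, with 2 members higher, Gpsm2 at 4.57 and Myo15 at 2.84, and 2 lower, Whrn at -6.75 and Eps8 at -1.08, beside 19.3% and 14.7% of all genes. Gnai3, Eps8l2 and Twf2 were at 0.01, 0.18 and 0.20 there, since they were low on both sides or, for Eps8l2, at 21.5 against 18.9 CPM. This comparison and that of the types in the base share the same 8 basal OHCs, and their directions are therefore not independent.

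Each of the 8 basal OHCs is worth giving by cell. Myo15 had 0, 0, 10, 1, 461, 4, 3 and 0 counts in cells 1 to 8, so that 96.2% came from cell 5, at 467 CPM. Eps8l2 had 513 of its 518 counts in cell 6 and Gpsm2 744 of its 772, at 200 and 290 CPM. Whrn, Eps8, Gnai3 and Twf2 had 5, 3, 2 and 9 counts in all, and their highest cell was at 1.01 CPM. The cell with the most reads, cell 3 at 8831447 counts, had its highest member, Myo15, at 1.13 CPM. Without the cell with the most reads of the gene in each group, basal over apical OHCs was at -6.79 for Myo15, -5.43 for Eps8l2 and -5.43 for Gpsm2. Slc26a5 had 98.7% of its counts in a single basal OHC as well, and Ocm, the calcium buffer of OHCs, 95%.

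**Figure D4:**
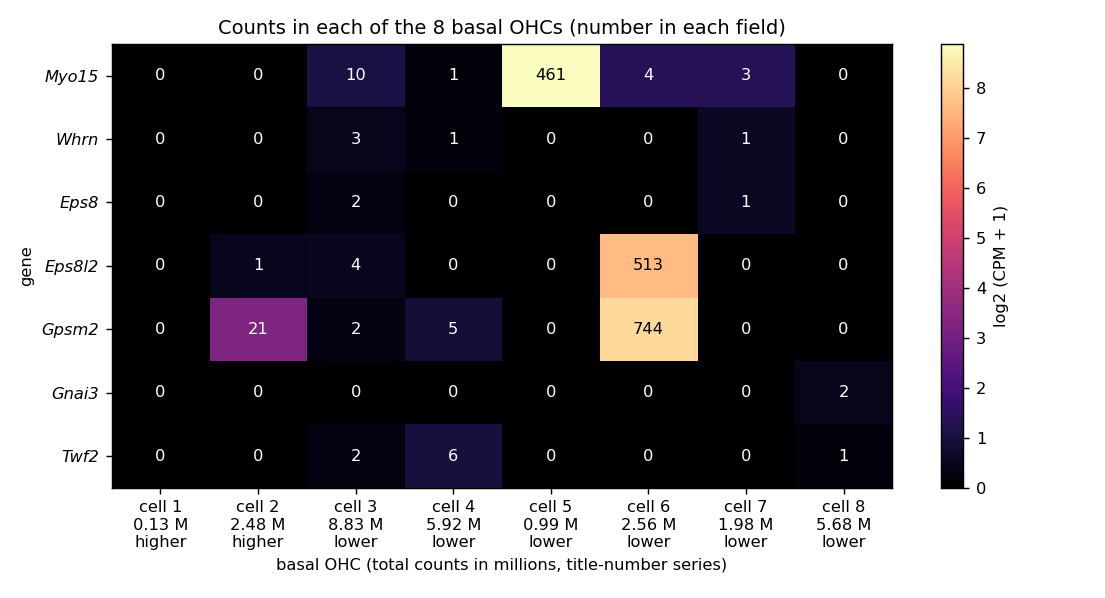
Counts of the 7 genes (rows) in the 8 basal OHCs (columns, with the total counts and title-number series under each), coloured by log2 of (CPM + 1). Cell 5 holds 461 counts of Myo15, cell 6 holds 513 of Eps8l2 and 744 of Gpsm2, and no other field is above 21.

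Along the spiral of IHCs, 3 of 7 genes were 2-fold or more higher in the base than in the apex, Gpsm2 (2.08), Whrn (1.97) and Eps8l2 (1.08), where 26.5% of all genes were, and 1 was lower, Eps8 (-3.25), where 31.5% were. Myo15 was at 0.80, Twf2 at -0.11 and Gnai3 at -0.17, for a median of 0.80 beside -0.02 over all genes. High-numbered cells gave 2 higher, Whrn at 1.82 and Gpsm2 at 1.61, and 1 lower, Eps8 at -3.72, beside 26.2% and 31.9% of all genes. Low-numbered cells gave 5 higher, with Gpsm2 at 3.75, Myo15 at 3.02, Eps8l2 at 2.62, Whrn at 2.32 and Gnai3 at 2.23, and none lower, beside 18.9% and 25.8% of all genes. By summed cells Whrn and Gpsm2 were thus higher in the base in both series. For Whrn the low-numbered basal sum rested on 1 cell, with 2873 counts at 324 CPM. It was the only 1 of 12 at 10 CPM or more, against 1 of 17 in the apex, and the basal median was 0.349 CPM. The same cell held 18294 counts of Gpsm2, at 2064 CPM, a gene for which 4 of the 12 were at 10 CPM or more. The middle did not lie between apex and base for Whrn, at 12.5, 143 and 51.97 CPM, nor for Gnai3, at 40.9, 14.2 and 36.4 CPM in apex, middle and base.

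Cells differed widely in how many of the 7 genes they held. At 10 CPM or more, 53 cells had none of them, 24 had 1, 28 had 4 or more and 2 had all 7. The median was 3 members in high-numbered and 0 in low-numbered cells, and 27 of the 28 cells with 4 or more were high-numbered. In middle OHCs the 7 high-numbered cells held 3 to 7 members and the 16 low-numbered ones 0 or 1, so that the series did not overlap there. In middle IHCs the ranges were 1 to 6 and 0 to 2, and in basal IHCs 2 to 7 and 0 to 4. The median total was 10532521 counts in high-numbered and 762541 in low-numbered middle OHCs. In basal IHCs it was 7120620 and 6688977 counts, and the medians were 5 and 1 members. The part of depth in these numbers was not tested. Other lists moved the same way, as the median cell held 4 of 6 pan hair cell markers and 6 of 7 actin list genes in the high-numbered series and 1 and 2 in the low-numbered one. Whether title number marks a batch was not tested, since the labels do not say what it counts.

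**Figure D5:**
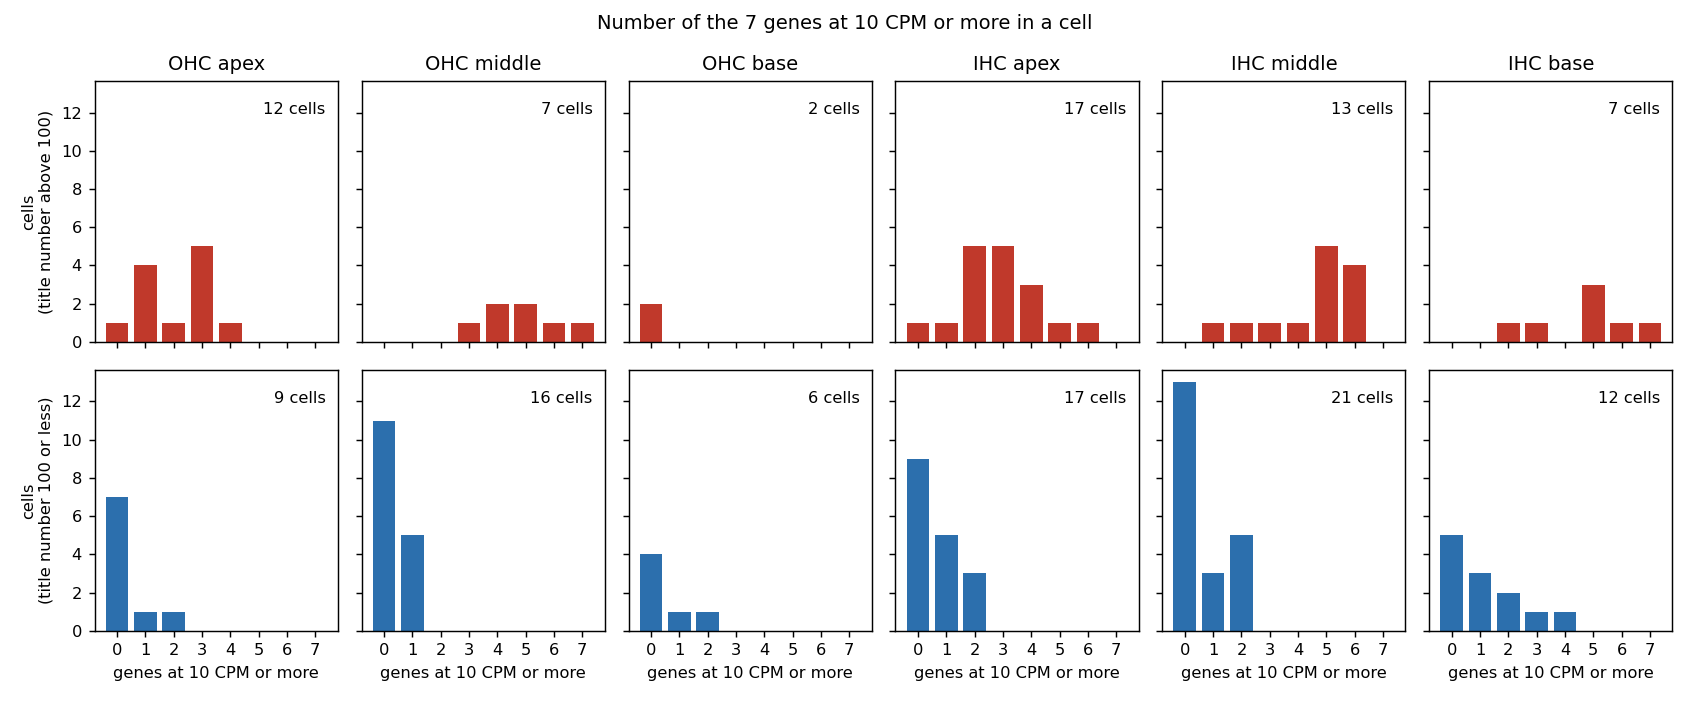
Number of cells (bars) by how many of the 7 genes they held at 10 CPM or more, for each group (columns) and for high-numbered (top, red) and low-numbered cells (bottom, blue). Low-numbered cells pile up at 0 in every group, while high-numbered cells reach 3 to 7 genes in middle OHCs.

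Members were only weakly correlated from cell to cell after group and series were taken into account. Over all cells the correlation of log2 (CPM + 1) between 2 members ran from 0.14 to 0.42 over the 21 pairs, with a median of 0.31. With the mean of each group and series taken off it ran from -0.11 to 0.25, with a median of 0.07. Myo15 and Whrn, motor and cargo, were highest after this step at 0.25 (0.38 before), and 28 of the 34 cells with Whrn at 10 CPM or more also held Myo15, which is 82.4% of the Whrn cells and 49.1% of the 57 Myo15 cells. Such shared counts do not take off the series. Of the 34 Whrn cells 27 were high-numbered, and Myo15 was at 10 CPM or more in 74.1% of all high-numbered cells. Whrn and Gnai3 followed at 0.22 and Gpsm2 and Twf2 at 0.18. Gpsm2 and Gnai3, partners on the same chromosome, were at 0.11, with 17 cells holding both, 68% of the Gnai3 cells and 36.96% of the Gpsm2 cells. Of the 25 Gnai3 cells 23 were high-numbered, and Gpsm2 was at 10 CPM or more in 62.1% of all high-numbered cells. These pairs share library and depth, and correlations of this size in sparse counts are given as a description. With cells thinned to equal depth the pairs ran from -0.14 to 0.25.

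The genes whose pattern was most like each member were sought among 4383 genes (4384 for Gnai3) in the 125 thinned cells, by the correlation after the same step. For Myo15 they were Ndufs1, Mark3 and Cops8 (0.45, 0.41 and 0.40), and for Whrn Zmynd8, Pdcd5 and Lig1 (0.41, 0.40 and 0.39). For Eps8 they were Kctd20, Lrtm2 and Tmem131 (0.46, 0.44 and 0.43), and for Eps8l2 Cnot1, Tpp1 and Mon2 (0.46, 0.42 and 0.42). For Gpsm2 they were Pak3, the hair cell transcription factor gene Pou4f3 and Slc25a25 (0.46, 0.44 and 0.41). For Gnai3 they were Srsf6, Gpr108 and Dlg3 (0.42, 0.42 and 0.42), and for Twf2 Ap1g1, Nsd2 and Pdxk (0.43, 0.41 and 0.41). No member was among the 3 genes most like another member, and the median over all genes lay between 0.04 and 0.10.

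Close relatives of the members were at very unequal levels. Twf1, the other twinfilin gene, was at 2839, 4657 and 286 TPM in apical, middle and basal OHCs and 10753, 6344 and 2402 TPM in the IHCs, above Twf2 in all 6 groups. Gnai2 was at 75.9, 56.2 and 143 TPM in OHCs and 43.5, 123 and 62.7 TPM in IHCs, which is above Gnai3 in each group but apical IHCs. Gpsm1 stayed at or under 5.65 TPM, Gnai1 at or under 3.93 TPM, Eps8l1 at or under 3.29 TPM and Pdzd7 at or under 2.32 TPM in every group, and Gpsm2 was the higher Gpsm gene per length in each of them. Of 8 relatives, 5 passed 5 CPM, of which 1 was higher and 3 lower in OHCs than in IHCs of the apex, 0 and 1 in the middle and 1 and 1 in the base. Basal over apical OHCs gave 2 higher and 1 lower, and IHCs 0 and 3. Over all genes the shares higher and lower were 28.6% and 32.4% in the apex, 20.7% and 29.7% in the middle and 16.1% and 48.9% in the base, 17.4% and 47.6% for basal over apical OHCs and 26.5% and 31.5% for IHCs. The lists hold few genes, and nothing is read from their counts beyond these shares. Eps8l3 stayed at or under 1.60 TPM. Myo10, another myosin that moves to the tips of protrusions, was at 0.636, 17.2 and 17.1 CPM in apical, middle and basal OHCs and 73.1, 26.8 and 15.7 CPM in the IHCs.

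Partners outside the complex were counted in the same way. Beside their counts, the shares of all genes higher and lower in OHCs were 28.6% and 32.4% in the apex, 20.7% and 29.7% in the middle and 16.1% and 48.9% in the base. Of 10 apical polarity partners, all at 5 CPM or more in some group, 4 were 2-fold or more higher and 2 lower in OHCs than in IHCs of the apex, 3 and 2 in the middle and 4 and 4 in the base. The highest and lowest ratios were those of Pard6b (3.25) and Fzd6 (-4.14) in the apex, Numa1 (3.03) and Ccdc88c (-1.32) in the middle and Gnao1 (3.90) and Vangl2 (-5.68) in the base, where Vangl2 had no read in OHCs. Insc, second highest in the apex and the middle and known as the inscuteable adaptor that binds GPSM2, was at 63.3, 129 and 110 CPM in apical, middle and basal OHCs and 7.26, 15.5 and 35.5 CPM in the IHCs. Over all cells that is higher in OHCs in all 3 regions (2.96, 2.98 and 1.60), where Gpsm2 was higher only in the apex, by 0.76, but 97.6% of the basal and 82.8% of the apical OHCs' Insc counts came from 1 cell each. The ratio of Insc in high-numbered and low-numbered cells was 2.78 and -0.02 in the apex and 2.96 and 1.60 in the middle. In the base it was -6.34 in high-numbered and 6.34 in low-numbered cells, opposite directions, with 2 high-numbered basal OHCs. Of the 9 genes of the shorter row tip and capping list, 0 were higher and 4 lower in OHCs of the apex, 1 and 6 in the middle and 1 and 7 in the base. Capzb, a subunit of the actin capping protein, was at 63.8, 11.3 and 0.946 CPM in apical, middle and basal OHCs and 34.7, 63.8 and 20.997 CPM in the IHCs, and Myo3a, the motor of another tip complex, had no read in basal OHCs, which allows up to 0.149 CPM, and 323 CPM in basal IHCs. Of 7 actin core and crosslinker genes, 1 was higher and 1 lower in OHCs in the apex, 1 and 2 in the middle and 2 and 3 at the base.

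For base against apex these lists gave, in OHCs, 2 higher and 6 lower of 10 polarity partners, 1 and 5 of 9 shorter row genes and 1 and 3 of 7 actin genes. In IHCs they gave 1 and 4, 1 and 2, and 0 and 2. The shares of all genes higher and lower were 17.4% and 47.6% in OHCs and 26.5% and 31.5% in IHCs. Actb, beta actin, was at 8496, 7123 and 12013 CPM in apical, middle and basal OHCs and 10545, 7237 and 3724 CPM in the IHCs, and it was at 10 CPM or more in all basal OHCs, in which the highest value of 4 of the 7 members was 1.01 CPM. Actg1 lay between 35.3 and 70.5 CPM in the 6 groups. Espn, an actin bundler of stereocilia, was at 787 CPM in basal OHCs, where 99.1% of its counts came from 1 cell, and between 58.9 and 277 CPM elsewhere.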

How the data were processed

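What the authors deposited is a table of whole-number read counts, with genes as lines and cells as columns. Per the submitters' processing notes, Trimmomatic, HISAT2 and featureCounts of Subread 1.4.6 were used with the GRCm38 (mm10) build. The sources used here do not say whether counting used strand, multi-mapped reads or molecular identifiers. Symbols and exon lengths came from the GENCODE M21 annotation, where 55154 of 55335 lines had a symbol, and promoters from RefSeq. The other 181 lines made up 0.00885% of all counts.

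Counts were summed over the cells of each labelled type and region, brought to a common scale by TMM (edgeR 4.0.16, R 4.3.3) and expressed as CPM. Values of single cells are CPM of the cell's own total, without that scaling. A difference is a log2 ratio with 1 CPM added on each side, a pseudocount that understates changes of low genes. The threshold of 2-fold was applied to members and to the 15004 genes at 5 CPM or more in 1 or more groups alike. TPM used merged exon length and was not scaled by TMM. Intervals are exact Poisson or, for ratios, exact binomial at 95%. As no label names an animal, no test was run. Self-tests on simulated counts with known changes in apical OHCs checked the steps, and they do not cover the few cells and counts of basal OHCs. Thinning to 582635 counts, percentile 10 of all totals, left 125 cells.

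The members and the 12 gene lists were chosen with earlier results of these data known. All members were named. The genes of a list that could be named were the relatives, Capzb, Actb, Actg1, Espn and the 2 highest and 2 lowest ratios of a list in a comparison, of which only some were. Genes most like a member were the 3 with the highest Pearson correlation over thinned cells, after the mean of each group and series was taken off, among genes with a read in 30% or more of these cells, leaving out predicted, ribosomal, mitochondrial and pseudogene symbols. Alternatives were plain CPM, the size factors of DESeq2 1.42.0, equal weight per cell, thinned cells, a pseudocount of 0.1, leaving out the deepest cell, the cell with the most reads of the gene or cells under 2000 detected genes, each title-number series alone and, for the shares of all genes, no filter. The share of cells at 10 CPM or more was chosen after seeing the data, in place of the share with any read, as were the promoter windows shown and the alternative without either cell of a shared title number. The replicate numbers of cells are names only.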

Additional observations from a re-analysis of the deposited data

Results flagged for a closer look

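In the 8 basal OHCs, the only group small enough for a check of single cells, the highest cell stood apart from the rest for 6 of the 7 genes. It was at 467 CPM for Myo15 (cell 5), 200.1 CPM for Eps8l2 and 290 CPM for Gpsm2 (both cell 6), and at 0.506 CPM for Eps8 (cell 7), 0.352 CPM for Gnai3 (cell 8) and 1.01 CPM for Twf2 (cell 4). The last 3 values are 1, 2 and 6 counts, near the level of single reads. For Eps8 cell 3, with more reads in all, held 2 counts, more than the cell with the highest CPM. Among normal values chance flags about 1 in 20 groups in such a check, and the rate for sparse counts like these was not computed.

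For some genes the difference past 2-fold had opposite directions in different regions or types, and the difference between them was not tested. Myo15 was higher in OHCs than in IHCs of the apex (log2 ratio 1.71) and lower in the base (-2.40). Whrn was higher in OHCs of the apex (2.12) and lower in the middle (-3.04) and the base (-5.41). For base over apex, Whrn was lower in basal OHCs (-5.55) and higher in basal IHCs (1.97). Eps8l2 was at -1.78 in OHCs and 1.08 in IHCs for the same comparison, and Gpsm2 at -2.06 and 2.08. Ratios that involve the base of OHCs rest on the 8 basal OHCs. In low-numbered cells the apical ratio of Myo15 turned round (-1.16), as did base over apex of OHCs for Eps8l2 (0.18) and Gpsm2 (4.57). With equal weight per cell base over apex of OHCs was -0.25 for Eps8l2 and -0.51 for Gpsm2. The basal ratio of Myo15 was then -0.39, so that each of these fell under 2-fold.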

How the results depend on the processing

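Of the 35 log2 ratios of members, 23 were past 2-fold, and of their 230 values in 10 alternatives 209 stayed past 2-fold in the same direction, 14 fell under 2-fold and 7 turned round. Of the 23, 11 held in every alternative. All 7 that turned round did so in low-numbered cells alone: Myo15 in OHCs against IHCs of the apex (-1.16), Eps8 in basal against apical IHCs (0.46), and, in basal against apical OHCs, Myo15 (2.84), Gpsm2 (4.57), Twf2 (0.20), Eps8l2 (0.18) and Gnai3 (0.0060). The count of members lower in OHCs of the apex was 2 with equal weight per cell, 2 without the cell with the most reads of the gene and 3 in low-numbered cells, against 1. In the middle, 1 member in place of 0 was higher in OHCs with plain CPM, the size factors of DESeq2, equal weight, thinned cells, a pseudocount of 0.1 or low-numbered cells. In low-numbered cells 2 members were higher and 2 lower in basal than in apical OHCs, against 0 and 7, and 5 higher and 0 lower in basal than in apical IHCs, against 3 and 1. Without the filter on low genes the share of all genes past 2-fold in 1 direction lay between 5.59% and 17.1% over the 5 comparisons, against 16.1% to 48.9% with it, as more low genes are counted. The causes of the other shifts were not tested. No paired analysis was possible because the replicate numbers only name cells. With 1 sample per group, no spread between animals can be given, and intervals cover counting error only. Members at few reads in a group, above all in basal OHCs, limit what a difference can show.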
